A study of Homo sapiens with 6 samples.

Results

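The genes described here are 9 complement genes, chosen by name and looked up by Ensembl gene identifier among the 28495 genes of the deposited table, where each of the 9 was found. The choice splits them into 6 genes for fluid-phase proteins (CFB, CFD, C2, C1RL, C8G and CLU) and 3 for membrane regulators (CD46, CD55 and CD59). RNA came from NCI-H1299 cells, an established human lung cancer line that the labels call lung adenocarcinoma and that is known to lack p53. There were 3 libraries of cells silenced for complement factor B (sh-CFB) and 3 of control cells (sh-NC). The sample titles name short hairpins while the table's columns carry names of the kind used for siRNA, so the form of the reagent is not settled here. The labels give no treatment time and no number of hairpin sequences or clones.

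Complement is a cascade of secreted proteases that marks surfaces with fragments of C3 and can end in a pore through the membrane. Factor B and C2 are related proteases that supply the cutting subunit of the C3 convertases, factor B in the alternative pathway and C2 in the classical and lectin pathways, and factor D is the protease that activates factor B. Host cells hold the cascade in check with membrane proteins: CD46 helps to degrade deposited C3b and C4b, CD55 (decay-accelerating factor) takes convertases apart, and CD59 blocks the last step of pore formation. CD55 and CD59 are held by a glycosylphosphatidylinositol (GPI) anchor, whereas CD46 spans the membrane. The liver makes most circulating complement, but epithelial and tumour cells also make some components.

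The libraries held 26.2 M to 40.0 M reads (M, 1e6), as recovered from the steps of the FPKM values. Lineage markers of lung adenocarcinoma were close to undetected: NKX2-1, the lung lineage transcription factor, averaged 0.154 FPKM in sh-CFB and 0.261 FPKM in sh-NC, and none of the 6 such genes listed in the table (of 8 looked for) reached the filter of 0.5 FPKM. VIM and KRT18, mesenchymal and epithelial filament genes, averaged 435 and 163 FPKM in sh-CFB and 407 and 173 FPKM in sh-NC, while EPCAM, an epithelial adhesion gene, averaged 0.0515 FPKM in sh-CFB and 0.0603 FPKM in sh-NC. The summed FPKM of 8 immune markers was 0.662 to 0.831 in sh-CFB and 0.448 to 0.795 in sh-NC, with PTPRC at 2 reads in all. In bulk RNA of this kind, fewer cells that express a gene and less RNA per cell cannot be told apart. Among 6 hepatocyte markers, of which ALB and FGB were not found in the table, SERPINA1 was detected at 11.3 ± 1.53 FPKM in sh-CFB and 8.03 ± 0.676 FPKM in sh-NC (SD, n = 3 each; limma adjusted p = 0.0766, and 0.0138 once GC and length trends were removed), and its part in the results below was not tested. The libraries also differed by GC content. Across tested genes, the Spearman coefficient between GC content and a library's departure from the gene's mean was 0.60 for the first sh-CFB library, against -0.10 and -0.16 for the other two, and -0.55 for the first sh-NC library, against -0.25 and 0.23 for the other two.

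Start regions are printed for the target, for the most abundant gene of each class and for C1RL. Their start sites are those of RefSeq, and none was measured in these cells. With FOS named in the series title, the regions were searched for the AP-1 motif to which FOS-containing dimers bind. Each line gives 300 bases from RefSeq (GRCh38.p14, 250 bases before to 50 after the start site, in the gene's direction), for CFB at chr6:31945845-31946144 on the forward strand, CFD at chr19:859414-859713 on the forward strand, C1RL at chr12:7109165-7109464 on the reverse strand and CD59 at chr11:33736430-33736729 on the reverse strand. Capitals mark matches, on either strand, to AP-1 (TGANTCA), STAT (TTCNNNGAA), the GC box (GGGCGG), the TATA box (TATAAA) or the heat shock element (GAANNTTC), and no 2 matches overlap.
CFB: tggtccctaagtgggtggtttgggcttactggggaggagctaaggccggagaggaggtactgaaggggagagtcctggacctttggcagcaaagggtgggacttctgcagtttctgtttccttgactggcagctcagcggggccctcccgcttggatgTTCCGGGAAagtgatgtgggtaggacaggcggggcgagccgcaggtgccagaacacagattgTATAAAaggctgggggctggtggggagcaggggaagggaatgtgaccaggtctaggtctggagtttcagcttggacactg
CFD: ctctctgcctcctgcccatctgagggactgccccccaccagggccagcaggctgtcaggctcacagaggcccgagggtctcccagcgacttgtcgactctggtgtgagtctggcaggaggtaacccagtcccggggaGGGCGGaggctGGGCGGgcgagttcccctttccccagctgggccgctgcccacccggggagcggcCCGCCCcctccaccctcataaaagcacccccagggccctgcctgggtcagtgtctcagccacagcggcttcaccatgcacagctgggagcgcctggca
C1RL: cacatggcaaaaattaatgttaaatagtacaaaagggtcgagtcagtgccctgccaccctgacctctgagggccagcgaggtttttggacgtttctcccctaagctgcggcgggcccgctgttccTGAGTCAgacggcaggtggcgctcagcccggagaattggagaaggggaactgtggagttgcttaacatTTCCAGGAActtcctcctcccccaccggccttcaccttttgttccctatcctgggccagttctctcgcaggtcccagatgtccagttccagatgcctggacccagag
CD59: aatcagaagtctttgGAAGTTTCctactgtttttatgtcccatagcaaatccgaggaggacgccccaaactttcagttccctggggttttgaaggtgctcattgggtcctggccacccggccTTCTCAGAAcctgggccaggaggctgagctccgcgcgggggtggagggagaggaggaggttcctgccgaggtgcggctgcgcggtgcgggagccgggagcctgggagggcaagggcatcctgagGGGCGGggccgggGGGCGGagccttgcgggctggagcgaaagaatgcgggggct

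Of the 9 genes, 7 had an entry in the promoter table. An AP-1 match was present in 1 of these 7, C1RL, 125 bases before its start site, against 7.71% of all 35116 promoters of this length. The STAT motif matched in CFB, C1RL and CD59, against 7.66% of all promoters. The CFB window also held a TATA box 30 bases before the start site, found in 11.5% of all promoters, and no GC box. The GC box, present in 45.0% of all promoters, matched 3 times in CFD and in CD46, and C2, CD55 and CD59 also held it. A heat shock element matched in CD59, against 6.77% of all promoters. These matches are descriptions of letters in a fixed window and not of binding.

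The 9 genes spanned a wide range of levels, and the order did not follow the classes. FPKM is scaled per length of gene, so levels can be set side by side only as far as those lengths match the transcripts made. That match was not tested, and the levels were not corrected for GC content. The length behind the FPKM values was 1212 bases for CFD and 10557 bases for CD59, which had more reads than CFD in every library. Over the 6 libraries CFD stood first with a mean of 63.6 FPKM (SD 22.7), above CD59 at 23.3 (SD 4.29), CLU at 4.66 (SD 0.770), CD55 at 3.10 (SD 0.411), CD46 at 2.87 (SD 0.898), C8G at 1.04 (SD 0.174), C1RL at 0.550 (SD 0.198) and C2 at 0.0807 (SD 0.0287), with CFB last. Each gene lay above the next in all 6 libraries except CD55, which lay above CD46 in 5 of 6, and CD55 and CD46 were the only neighbours in this order whose ranges over the libraries overlapped. All 3 membrane genes passed the filter, whereas the fluid-phase genes held both the highest and the lowest levels. CFD ranked between 473 and 705 among all listed genes in the sh-CFB libraries and between 867 and 1187 in the sh-NC libraries.

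**Figure D1:**
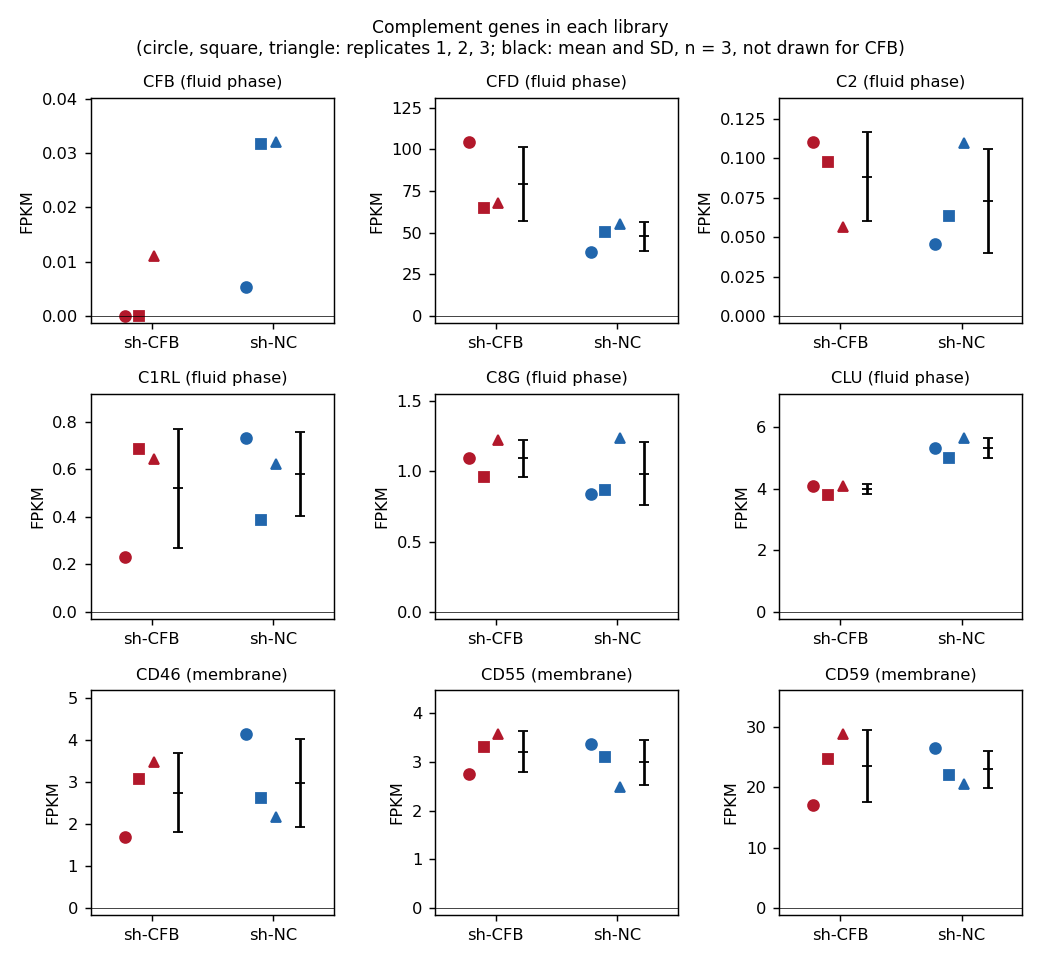
Deposited FPKM (vertical axes, linear, each panel on its own scale) of the 9 complement genes in each sh-CFB and sh-NC library; points are libraries and black bars the mean and SD of 3, not drawn for CFB. CFD lies above and CLU below in every sh-CFB library relative to every sh-NC library, and the groups overlap in the other 7 panels.

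None of the 7 complement genes that could be tested passed in sh-CFB against sh-NC. Those were the genes with a mean of at least 0.5 FPKM over all libraries (CFD, C1RL, C8G, CLU, CD46, CD55 and CD59), while CFB and C2 fell short. With limma on log2(FPKM + 0.5), 0 of the 7 had an adjusted p under 0.05, and voom on recovered reads also called 0. An unadjusted limma p under 0.05 was reached by 2 of the 7 (CFD and CLU), against 3225 of all 12466 tested genes. Of all 12466 tested genes, 929 passed (7.45%), 217 higher and 712 lower in sh-CFB. The median log2 fold change was 0.01 for the 7 genes and -0.15 for all tested genes. The groups did not overlap for 2 of the 7, against 33.7% of tested genes.

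CFB, the silenced gene (ENSG00000243649, chromosome 6 from 31945650 to 31952084), was at the edge of detection. Its libraries held 0, 0 and 2 reads in sh-CFB and 1, 6 and 5 reads in sh-NC. The FPKM values were 0, 0 and 0.0110 in sh-CFB, against 0.00536, 0.0317 and 0.0321 in sh-NC, where 3 reads correspond to 0.0158 to 0.0242 FPKM depending on the library. The highest sh-CFB library lay above the lowest sh-NC library, so the groups overlapped (two-sided exact permutation p of 0.2, where 0.1 is the smallest possible with 3 libraries against 3). Pooled, the rate of reads in sh-CFB over that in sh-NC was 0.191, with an exact 95% interval from 0.0208 to 0.858 that covers counting error only. CFB overlaps C2 by 23 bases on the same strand and lies within a read-through gene of GENCODE 29 (AL645922.1) over 6399 bases, so reads there could have been left out or assigned to a neighbour by the authors' counting, which was not tested. With so few reads, CFB gives little check of which libraries were silenced.

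CFD, which encodes factor D (ENSG00000197766, chromosome 19 from 859643 to 863630), was the most abundant of the 9. It had 104.6, 65.1 and 67.7 FPKM in sh-CFB replicates 1, 2 and 3 and 38.4, 50.2 and 55.4 FPKM in sh-NC replicates 1, 2 and 3, from 1838 to 3325 reads a library. Every sh-CFB library was above every sh-NC library, as for 10.0% of tested genes, and replicate 1 was the highest of sh-CFB and the lowest of sh-NC. The means were 79.1 ± 22.1 FPKM in sh-CFB and 48.0 ± 8.70 FPKM in sh-NC (SD, n = 3 each). The log2 fold change was 0.70 (SE 0.21, 95% interval 0.21 to 1.177, limma adjusted p = 0.0843), larger than that of 98.6% of tested genes but not past the threshold. With GC and length trends removed from each library (called the GC correction here), it was 0.47 (SE 0.12, adjusted p = 0.0483), and 4.07% of tested genes passed upward there. Without both replicate 1 libraries it was 0.33 (adjusted p = 0.0996). CFD has a GC content of 65.4%, above that of 95.9% of tested genes, and the replicate 1 libraries, where CFD was farthest apart, were also the ends of the GC trend.

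C2, the classical and lectin pathway protease, and C1RL were the lowest of the fluid-phase genes after CFB. C2 (ENSG00000166278, chromosome 6 from 31897785 to 31945672) had 0.111, 0.0977 and 0.0566 FPKM in sh-CFB and 0.0460, 0.0634 and 0.11 FPKM in sh-NC. That is 46 reads in sh-CFB and 44 in sh-NC in all, with overlapping groups (two-sided exact permutation p of 0.7) and a pooled ratio of rates of 1.20 (exact 95% interval 0.776 to 1.86). C1RL (ENSG00000139178, chromosome 12 from 7089587 to 7109273) encodes a C1r-like protease. It had 0.230, 0.686 and 0.643 FPKM in sh-CFB and 0.733, 0.386 and 0.622 FPKM in sh-NC. The sh-CFB replicate 1 library was the lowest of all 6, and the groups overlapped. The log2 fold change was -0.10 (95% interval -0.66 to 0.45, limma adjusted p = 0.824). C1RL overlaps C1R by 3021 bases on the same strand, and C1R itself averaged 0.156 FPKM in sh-CFB and 0.135 FPKM in sh-NC.

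C8G encodes the gamma chain of C8, a component of the terminal pore (ENSG00000176919, chromosome 9 from 136945185 to 136946975). It had 1.09, 0.962 and 1.22 FPKM in sh-CFB and 0.836, 0.867 and 1.24 FPKM in sh-NC, from 33 to 54 reads a library. The highest library of all was in sh-NC and the groups overlapped. The log2 fold change was 0.11 (95% interval -0.30 to 0.52, limma adjusted p = 0.737). The partner chains C8A and C8B, and C6 and C9 of the same pore, were not found in the table.

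CLU encodes clusterin, a secreted chaperone that also binds the terminal complex (ENSG00000120885, chromosome 8 from 27596917 to 27615031). It had 4.08, 3.79 and 4.11 FPKM in sh-CFB and 5.33, 5.01 and 5.67 FPKM in sh-NC. Every sh-CFB library was below every sh-NC library, as for 23.6% of tested genes, and the libraries of each group lay close together. The means were 3.99 ± 0.174 FPKM in sh-CFB and 5.33 ± 0.329 FPKM in sh-NC (SD, n = 3 each). The log2 fold change was -0.38 (SE 0.12, 95% interval -0.66 to -0.09, limma adjusted p = 0.107), which did not pass the threshold, and 21.4% of tested genes lay lower. Relative to the median tested gene it was -0.23, and with the GC correction it was -0.17 (adjusted p = 0.433) with overlapping groups. Without both replicate 1 libraries it was -0.39 (adjusted p = 0.141).

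None of the 3 membrane regulators passed the test, and their groups overlapped. Without both replicate 1 libraries their log2 fold changes were 0.39 for CD46, 0.26 for CD55 and 0.33 for CD59 (limma adjusted p = 0.199, 0.348 and 0.142). That omission was chosen after seeing the data. For each of the 3, replicate 1 was the lowest library of sh-CFB and the highest of sh-NC, so leaving it out had to raise the difference. The median of all tested genes was -0.0014 under the same omission, against -0.15 with all 6 libraries. CD46 (ENSG00000117335, chromosome 1 from 207752057 to 207795513) had 1.69, 3.08 and 3.48 FPKM in sh-CFB and 4.16, 2.63 and 2.16 FPKM in sh-NC. Replicate 1 was the lowest library of sh-CFB and the highest of sh-NC, so the lowest and the highest of all 6 libraries both carried that number. The log2 fold change was -0.10 (95% interval -0.77 to 0.56, limma adjusted p = 0.857). CD46 has a GC content of 37.7%, higher than that of 6.41% of tested genes, and the replicate 1 libraries were the ends of the GC trend. With the GC correction its difference was 0.065 and its SE was 0.11, against 0.29 without the correction.

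CD55 (ENSG00000196352, chromosome 1 from 207321376 to 207386804) had 2.75, 3.30 and 3.58 FPKM in sh-CFB and 3.38, 3.10 and 2.49 FPKM in sh-NC. The groups overlapped, and the log2 fold change was 0.09 (95% interval -0.29 to 0.48, limma adjusted p = 0.773). With the GC correction it was 0.32 (95% interval 0.09 to 0.55, adjusted p = 0.0767), still short of the threshold. CD59 (ENSG00000085063, chromosome 11 from 33703010 to 33736491) had 17.1, 24.7 and 28.9 FPKM in sh-CFB and 26.5, 22.0 and 20.5 FPKM in sh-NC. The lowest and the highest library were both in sh-CFB. The log2 fold change was 0.01 (95% interval -0.44 to 0.46, limma adjusted p = 0.978), so the data hold changes from 0.737-fold to 1.38-fold. The reads behind CD59 ran from 4726 to 11727 a library. With the GC correction the difference was 0.24 (adjusted p = 0.172).

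**Figure D2:**
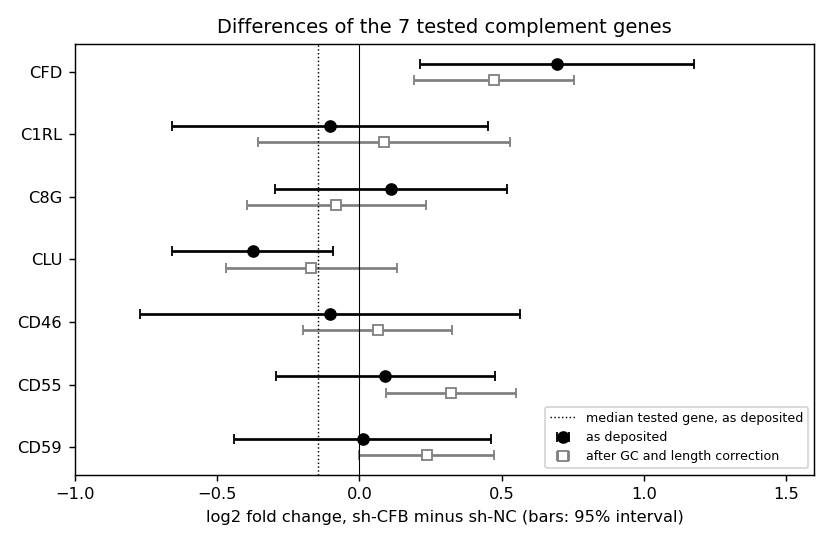
Log2 fold change, sh-CFB minus sh-NC (horizontal axis), of the 7 tested complement genes with 95% intervals, from the FPKM as deposited (black) and after removal of GC and length trends (grey); the dotted line is the median tested gene at -0.15. The intervals of CFD lie above 0 in both, that of CLU lies below 0 before the correction, and that of CD55 lies above 0 after it.

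Set class against class, the median fluid-phase gene lay below the median membrane gene in all 6 libraries, while the sum over the fluid-phase genes exceeded the sum over the membrane genes. The difference of medians, fluid phase minus membrane, was -1.59, -1.53 and -1.54 on the log2(FPKM + 0.5) scale in sh-CFB, against -1.86, -1.71 and -1.10 in sh-NC. The sh-CFB values lay within the range of the sh-NC values. The fluid-phase genes summed to 110.1, 70.6 and 73.7 FPKM in sh-CFB and 45.4, 56.6 and 63.1 FPKM in sh-NC. These groups did not overlap, and CFD alone made up 91.8% to 94.99% of the sum in sh-CFB and 84.7% to 88.8% in sh-NC. The other 5 fluid-phase genes together had 5.51, 5.54 and 6.04 FPKM in sh-CFB and 6.95, 6.36 and 7.67 FPKM in sh-NC, lower in every sh-CFB library, and CLU held most of that sum. The membrane genes summed to 21.5, 31.1 and 36.0 FPKM in sh-CFB and 34.0, 27.7 and 25.2 FPKM in sh-NC, with overlapping groups. The share of CD59 in the membrane sum was nearly constant, 79.3% to 80.4% in sh-CFB and 77.8% to 81.5% in sh-NC. These sums are descriptions of the chosen genes and carry no test.

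Ratios within a library do not depend on its scaling. CFD over CD59, the most abundant gene of each class, was 6.13, 2.63 and 2.34 in sh-CFB, against 1.45, 2.29 and 2.703 in sh-NC. The groups overlapped, and replicate 1 was the highest library of sh-CFB and the lowest of sh-NC. CLU over CD55 was 1.48, 1.15 and 1.15 in sh-CFB, against 1.58, 1.62 and 2.27 in sh-NC, lower in every sh-CFB library. CD55 over CD46 was 1.62, 1.07 and 1.03 in sh-CFB, against 0.812, 1.18 and 1.15 in sh-NC, again with replicate 1 at both ends.

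**Figure D3:**
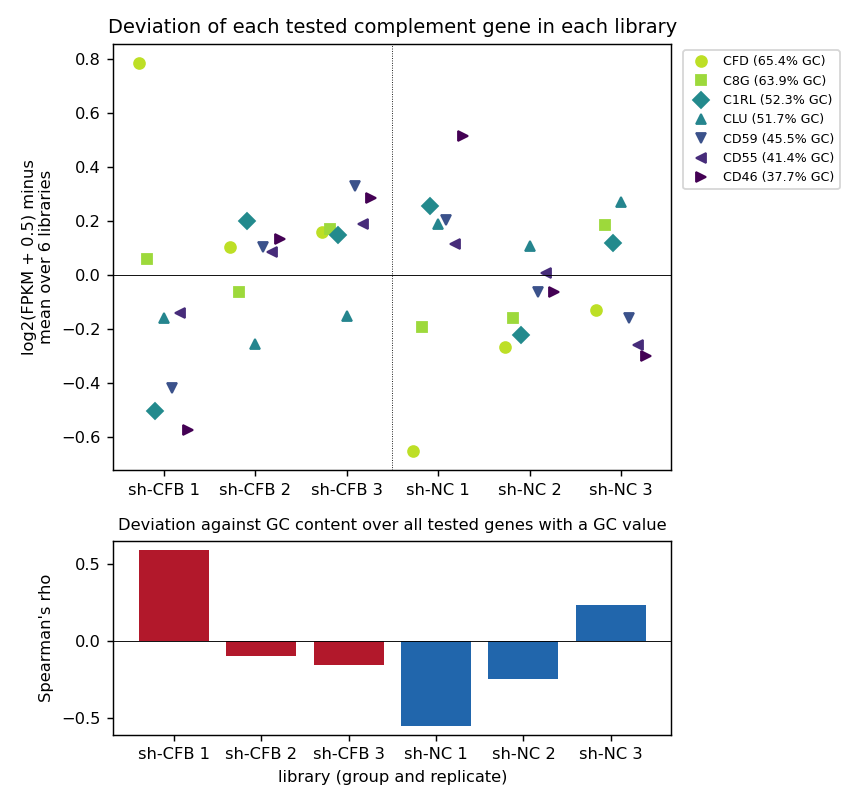
Top, deviation of each tested complement gene from its mean over the 6 libraries on the log2(FPKM + 0.5) scale, by library, coloured by GC content; bottom, Spearman correlation of all tested genes' deviations with GC content in each library. In sh-CFB replicate 1 (coefficient 0.60) CFD stands at 0.78 and CD46 at -0.57, and in sh-NC replicate 1 (coefficient -0.55) CFD stands at -0.65 and CD46 at 0.51. In the same libraries, in that order, C8G (63.9% GC) stands at 0.06 and -0.19, C1RL (52.3%) at -0.50 and 0.26, and CLU (51.7%) at -0.16 and 0.19. CD59 (45.5%) stands at -0.42 and 0.20, and CD55 (41.4%) at -0.14 and 0.11. The order of the deviations is not that of GC content.

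The genes whose pattern over the 6 libraries was most like that of CFD were RHOG, a small GTPase (Pearson r 0.998, mean 45.0 FPKM in sh-CFB and 33.2 FPKM in sh-NC), and MAP1LC3A, a gene of autophagosome formation (r 0.998). For CD59 they were the zinc finger genes ZNF365 and ZNF134 (r 0.998 and 0.996). These were picked as the highest of 11832 genes with a symbol over only 6 points, which share depth and GC trends. The pair alike to CFD had GC contents of 60.2% and 64.5%, and the pair alike to CD59 of 44.2% and 44.1%.

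Most other complement genes were absent or barely detected. Of 53 looked for, 30 were in the table and 4 were tested. Among these 1 fell in sh-CFB, 0 rose and 3 did not pass, against 7.45% of all tested genes called. Their median log2 fold change was -0.12, against -0.15 for all tested genes. C3, the substrate of the convertases that factor B and C2 form, had 6 reads in sh-CFB and 22 in sh-NC in all, and C5 had 245 in sh-CFB and 303 in sh-NC. Pooled depth was 98.0 M reads in sh-CFB and 112.4 M in sh-NC. The groups overlapped for C3 and for C5 (exact permutation p of 0.2 and 0.9), and 12 of the C3 reads came from sh-NC replicate 3. C4A and C4B, near-identical genes between which reads may be split, had 62 and 18 reads in sh-CFB, against 55 and 32 in sh-NC, and their groups overlapped. The gene that fell was C1QBP, a mostly mitochondrial protein that binds the globular heads of C1q, with 89.9, 93.3 and 89.1 FPKM in sh-CFB and 123.0, 128.0 and 144.4 FPKM in sh-NC. Its log2 fold change was -0.53 (SE 0.09, limma adjusted p = 0.0205), and -0.35 (adjusted p = 0.0464) with the GC correction. The call was lost without sh-CFB replicate 2 (adjusted p = 0.0826), without sh-CFB replicate 3 (0.0655), without sh-NC replicate 2 (0.113), with median-of-ratios factors, a scaling by each library's median ratio to the mean of all (0.386), and without the filter (0.0520). The tested genes that did not pass were COLEC11, a lectin pathway recognition protein (0.26, adjusted p = 0.398), ITGAM, a chain of complement receptor 3 (-0.26, adjusted p = 0.372), and PTX3, a pentraxin that binds C1q (0.02, adjusted p = 0.943).

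Of 28 genes that build the GPI anchor of CD55 and CD59, 27 were in the table and all of these were tested. Among them 1 fell, 0 rose and 26 did not pass, against 7.45% of all tested genes called, and their median was -0.08, against -0.15 for all tested genes. With the GC correction 2 fell, PIGW and PIGH (adjusted p = 0.0325 for PIGH), against 858 of all 12466 tested genes. PIGW, which acylates inositol in an early step of anchor assembly, had 0.565, 0.518 and 0.901 FPKM in sh-CFB and 2.34, 1.45 and 1.75 FPKM in sh-NC. Its log2 fold change was -1.01 (SE 0.21, limma adjusted p = 0.0326). Every sh-CFB library was below every sh-NC library, but omission of sh-CFB replicate 1 gave an adjusted p of 0.0728 and of sh-CFB replicate 2 one of 0.119. It was 0.1004, 0.103 and 0.0668 without sh-NC replicates 1, 2 and 3, 0.0569 with median-of-ratios factors and 0.101 without the filter. With the GC correction it was -0.76 (adjusted p = 0.0264).

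A list of 20 genes was taken as regulators of complement transcription, cytokine receptor chains and kinases included. Of these 19 were tested, 1 rose, 1 fell and 17 did not pass, against 7.45% of all tested genes called. Their median was -0.06, against -0.15 for all tested genes. CEBPB and CEBPD encode C/EBP factors of the acute-phase response and moved in opposite directions. CEBPB had 21.8, 19.9 and 22.4 FPKM in sh-CFB and 34.1, 32.9 and 29.7 FPKM in sh-NC, a log2 fold change of -0.58 (limma adjusted p = 0.0190). CEBPD had 17.2, 15.7 and 21.5 FPKM in sh-CFB and 10.3, 12.8 and 11.2 FPKM in sh-NC, a change of 0.63 (adjusted p = 0.0416). With the GC correction CEBPB was at -0.82 (adjusted p = 0.0184) and CEBPD at 0.30 (adjusted p = 0.305). CEBPB did not pass without sh-CFB replicate 2 (adjusted p = 0.0918) or without sh-NC replicates 1 (0.0674) and 2 (0.121), nor with median-of-ratios factors (0.222). CEBPD did not pass without any 1 of the 6 libraries, with adjusted p from 0.0709 to 0.122, nor without the filter (0.109), with median-of-ratios factors (0.0676), with FPKM rescaled to equal totals (0.0695) or by voom (0.0623).

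CFB and C2 lie side by side in the class III region of the major histocompatibility complex. Of 27 neighbours looked for there, 22 were tested, 2 rose, 0 fell and 20 did not pass, against 7.45% of all tested genes called, and their median was 0.18, against -0.15 for all tested genes. The count of calls was 4 after quantile normalization and 5 with the GC correction, where STK19, PBX2 and NEU1 also passed upward (adjusted p = 0.0199, 0.0159 and 0.0367). Over all 12466 tested genes, 1101 were called after quantile normalization and 1365 with the GC correction, 507 of the latter upward. The nearest expressed neighbours downstream of CFB did not pass: NELFE, a subunit of a complex that pauses RNA polymerase II, averaged 80.5 ± 7.02 FPKM in sh-CFB and 80.7 ± 12.1 FPKM in sh-NC, and SKIC2, an RNA helicase, averaged 18.5 ± 1.57 FPKM in sh-CFB and 17.5 ± 1.603 FPKM in sh-NC (SD, n = 3 each; limma adjusted p = 0.991 and 0.697). The 2 that rose were the stress-inducible, near-identical chaperone genes HSPA1A and HSPA1B (2.06 and 2.28, adjusted p = 0.00727 and 0.00613), between which reads may be split.

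**Figure D4:**
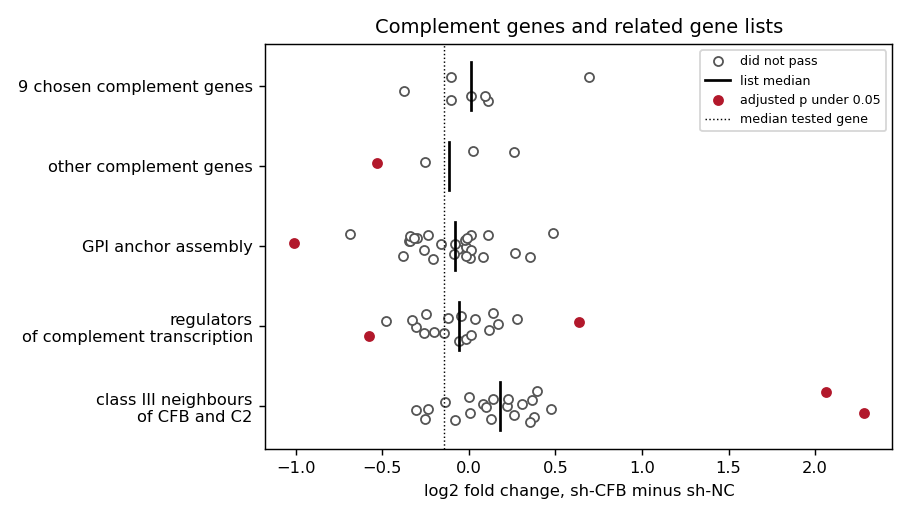
Log2 fold change, sh-CFB minus sh-NC (horizontal axis), of the tested genes among the 9 complement genes, the other complement genes and 3 related lists; red points passed limma's test (adjusted p under 0.05), bars are list medians and the dotted line is the median tested gene at -0.15. The 7 tested complement genes have a median of 0.01 and none is red; the 2 red points at the right are HSPA1A and HSPA1B.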

How the data were processed

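RNA-seq of 6 libraries was analysed from a single table of FPKM values made and deposited by the authors, all 6 of whose value columns were used. RNA was extracted with TRIzol and prepared with a TruSeq stranded mRNA kit, per the labels' protocols. The submitters' processing notes name STAR 2.7.3a, featureCounts 2.0.1, Trimmomatic 0.39, FastQC 0.11.9 and the build GRCh38. How FPKM was computed, the annotation release and the handling of strand and of multi-mapping reads were not given in the sources used here. Reads shared by overlapping genes or copies may therefore be lost or split. No label says that replicates were separate cultures, and p-values then reflect only how far these libraries spread, which may be technical.

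Gene symbols (22492 genes) came from a supplied name table, and coordinates, exon lengths and GC content of the longest transcript from GENCODE 29. Reads were recovered from the steps between FPKM values and were whole within 0.02 for 99.97% of genes. The 12466 genes averaging at least 0.5 FPKM entered limma 3.58.1 (R 4.3.3, intensity trend) on log2(FPKM + 0.5), a scale that understates changes of low genes, with Benjamini-Hochberg adjustment over all of them at 0.05. Genes under the filter had exact permutation tests. Other settings were pseudocounts of 0.1 and 1, other filters, 3 scalings, removal of each library's loess trend on GC content and length (the GC correction), a replicate block, voom and leaving out libraries. The fit was tested on simulated data. Intervals are at 95%. The other steps used scipy 1.17.1, pandas 2.3.3, matplotlib 3.10.9 and numpy 2.4.6 in Python 3.11.15.

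All 9 genes were described, with the tested other complement genes, NELFE and SKIC2, up to 2 changed genes per direction in each list, and the 2 genes most like the most abundant gene of each class. The genes, lists and settings were chosen with earlier results of these data known. Omission of both replicate 1 libraries was added after seeing the data. Other genes named with reads were chosen after their values were seen.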

Additional observations from a re-analysis of the deposited data

How the results depend on the processing

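Across 18 other settings, the log2 fold change of CFD ran from 0.33 to 0.90 and passed only after the GC correction, which made the count of called complement genes 1; that of CLU ran from -0.43 to -0.17 and passed in none. Genes near 0 changed sign without passing. CD46 was at 0.070 with median-of-ratios factors, 0.061 after quantile normalization, 0.065 with the GC correction and 0.39 without both replicate 1 libraries, and from -0.28 to 0.16 without single libraries. C1RL was at 0.087 with the GC correction and 0.22 without both replicate 1 libraries, and from -0.24 to 0.12 without single libraries. C8G was at -0.081 with the GC correction, and CD59 at -0.046 with FPKM rescaled to equal totals. Without single libraries CD59 ran from -0.15 to 0.22 and CD55 from -0.016 to 0.18, and without both replicate 1 libraries they were at 0.33 for CD59 and 0.26 for CD55. The cause was not tested. The difference of class medians was recomputed only with 2 other scalings and without each of the 6 libraries, and ran from -1.65 to -1.49.

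Over all genes the count of 929 became 324 without the filter, 133 with median-of-ratios factors and from 20 (without sh-NC replicate 2) to 540 without single libraries. The balance was 43 higher and 90 lower with median-of-ratios factors, 465 and 636 after quantile normalization and 507 and 858 after the GC correction. The median tested gene moved to 0.02 with those factors and to -0.01 after that correction. The 6 changed genes of the 4 related lists became 3 without the filter, 2 with median-of-ratios factors and 2 to 4 without single libraries, but 9 with the GC correction, 9 after quantile normalization and 7 at a mean of at least 1 FPKM.

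Samples of the same number deviated from their group means with correlations of -0.54, 0.07 and -0.45 for numbers 1, 2 and 3. The labels do not say that such samples share more than a number, and these correlations cannot settle it. With the replicate block, with or without the GC correction, 0 genes, 0 of the listed genes and 0 of the 9 complement genes passed in limma (1770 genes at an unadjusted p under 0.05 without that correction and 2476 with it). Depth limits CFB and C2, and C8G in part.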
